A study of Mus musculus with 6 samples.

Results

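RNA of the chains of complement C1q, of the activating Fc receptors for IgG and of the receptors *Csf1r* and *Cx3cr1* was examined in livers of mice that had lost *Spns1* after birth. The 10 genes, *C1qa*, *C1qb*, *C1qc*, *Fcer1g*, *Fcgr1*, *Fcgr3*, *Fcgr4*, *Csf1*, *Csf1r* and *Cx3cr1*, were taken by name from the 54532 genes of the count table, and all 10 were found there. RNA-Seq libraries were made from poly-A RNA of whole liver of 3 g*Spns1*-cKO and 3 control mice on the C57BL/6 background, 1 library per mouse. The g*Spns1*-cKO mice were *Spns1* fl/fl; Rosa26Cre-ER T2 animals given tamoxifen from the second postnatal week, and because Cre is expressed from Rosa26 the deletion could occur in any liver cell, macrophages included. The labels call the control animals WT, whereas the methods describe *Spns1* fl/fl littermates; whether those received tamoxifen, and the age at collection and sex of each mouse, are not given in the sources used here. Libraries held 30350002 to 35295611 counts. Values are given as CPM, the read count relative to the library total after TMM scaling, which corrects totals for differences in RNA composition. At this depth 3 counts corresponded to 0.0763 to 0.119 CPM. The TMM factors were 0.834 to 0.873 in control and 1.16 to 1.18 in g*Spns1*-cKO livers, so scaling bears on each level given.

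C1q is the recognition subunit of the classical complement pathway. It binds antibody in immune complexes and dying cells, and it is assembled from an A, a B and a C chain that macrophages produce. The proteases C1r and C1s that join it, and the components that follow, come largely from hepatocytes. Fc receptors bind the constant part of antibodies on phagocytes. *Fcgr1*, *Fcgr3* and *Fcgr4* encode activating receptors that reach the cell surface with the common gamma chain encoded by *Fcer1g*, whose ITAM signals through the kinase SYK, whereas *Fcgr2b* encodes the inhibitory receptor. *Csf1r* is the receptor through which CSF1 and IL-34 maintain macrophages, and *Cx3cr1* is the receptor of the chemokine CX3CL1 on monocytes and some macrophages.

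*Spns1* itself, the targeted gene, had 1008, 1562 and 875 counts in controls and 642, 1175 and 698 in g*Spns1*-cKO livers. This corresponded to 40.4 ± 8.98 CPM and 22.1 ± 7.40 CPM (mean ± SD, n = 3 mice per group). Its log2 fold change, written log2FC ± its standard error throughout, was -0.87 ± 0.25 and the groups did not overlap. The adjusted p was 0.0300 by the quasi-likelihood test of edgeR, corrected by Benjamini-Hochberg over the 15449 genes tested. Without control replicate 2, g*Spns1*-cKO replicate 1 or g*Spns1*-cKO replicate 3, the log2FC was -0.68, -0.74 and -0.74, and the change no longer passed the threshold of 0.05. In this allele the loxP sites flank exon 3, whereas the counts are of the whole gene. The paper reports by Western blot that SPNS1 protein was reduced in livers of g*Spns1*-cKO mice.

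The 4 stretches below are the 250 bases before the RefSeq start of *C1qb* and of the 3 activating receptor genes. All 10 genes rose, and these stretches were picked because each holds GAGGAA, the core letters bound by PU.1, a macrophage transcription factor. *C1qc*, which also rose and holds GAGGAA farther away, 193 bases before its start, is not printed because 151 bases of its stretch are exon in GENCODE M21. Of the printed stretches, that of *Fcgr3* holds 27 exon bases and that of *Fcgr4* holds 6. The *Fcgr3* stretch lies inside the annotated gene, which on the minus strand begins at 171064935, so it precedes only the RefSeq start used here. Capitals mark GAGGAA or its reverse complement TTCCTC. Coordinates are those of GRCm38.p6, chr4:136886201-136886450 for *C1qb*, chr3:96293970-96294219 for *Fcgr1* and chr1:171059404-171059653 for *Fcgr3*, all on the minus strand, and chr1:171018676-171018925 on the plus strand for *Fcgr4*. Each sequence reads 5′ to 3′ on the strand of the gene.
*C1qb*: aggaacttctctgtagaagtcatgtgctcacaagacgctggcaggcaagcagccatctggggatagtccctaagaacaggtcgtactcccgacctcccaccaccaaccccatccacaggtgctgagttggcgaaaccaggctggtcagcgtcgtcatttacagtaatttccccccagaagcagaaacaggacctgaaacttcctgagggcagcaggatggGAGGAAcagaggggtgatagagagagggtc
*Fcgr1*: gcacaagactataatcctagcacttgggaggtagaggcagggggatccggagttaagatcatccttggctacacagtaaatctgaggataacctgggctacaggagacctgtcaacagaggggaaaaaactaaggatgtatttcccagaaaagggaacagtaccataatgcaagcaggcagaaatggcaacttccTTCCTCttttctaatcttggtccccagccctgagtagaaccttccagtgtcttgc
*Fcgr3*: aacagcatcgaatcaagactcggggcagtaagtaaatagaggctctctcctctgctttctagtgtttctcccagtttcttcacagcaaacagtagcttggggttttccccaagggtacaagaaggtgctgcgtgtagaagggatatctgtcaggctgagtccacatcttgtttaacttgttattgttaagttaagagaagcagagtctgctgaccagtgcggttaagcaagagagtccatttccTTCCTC
*Fcgr4*: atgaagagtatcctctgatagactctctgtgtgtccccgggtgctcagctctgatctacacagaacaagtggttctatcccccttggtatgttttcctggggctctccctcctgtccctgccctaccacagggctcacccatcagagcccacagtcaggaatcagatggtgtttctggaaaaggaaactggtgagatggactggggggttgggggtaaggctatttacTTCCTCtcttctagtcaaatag

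The capitals began 30 bases before the start in *C1qb*, 55 in *Fcgr1*, 6 in *Fcgr3* and 22 in *Fcgr4*. RefSeq windows of 300 bases, from 250 before to 50 after the start, were found for 8 of the 10 genes as 9 windows, *Fcgr3* having 2 that overlap each other. Searched on both strands, GAGGAA was in 6 of these 9 windows, those of *C1qb*, *C1qc*, *Fcgr1*, *Fcgr3* and *Fcgr4*, and in 28.3% of all 32851 windows in the table. The motif TTCNNNGAA of STAT factors was in 1 of the 9, that of *Fcgr1*, where it began 109 bases before the start, and in 8.30% of all windows. The letters CACGTG and TGANTCA were in 0 of the 9, and in 7.15% and 7.81% of all windows. The matches in the 2 windows of *Fcgr3* are the same site, so GAGGAA was in 5 of the 8 genes, and no match overlapped that of another motif. The windows of *Fcer1g*, *Csf1* and *Cx3cr1*, which also rose, held no GAGGAA. These are matches of letters, and no binding was measured.

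All 10 genes were higher in g*Spns1*-cKO livers, by 2.08-fold for *Csf1* to 4.96-fold for *Cx3cr1*, and for each gene every g*Spns1*-cKO liver was above every control liver. Of all genes tested, 21.3% were called higher at an adjusted p under 0.05, and 27.1% had all g*Spns1*-cKO livers above all control livers. The median log2 fold change was 1.58 over the 10 genes and 0.014 over all genes tested. Each gene alone reached a two-sided exact permutation p = 0.1, the smallest that 3 mice against 3 allow, so the adjusted p-values below rest on the edgeR model. With each of the 6 mice left out in turn, all 10 genes were called higher each time. In whole liver, more cells of a type and more RNA per cell cannot be told apart.

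**Figure D1:**
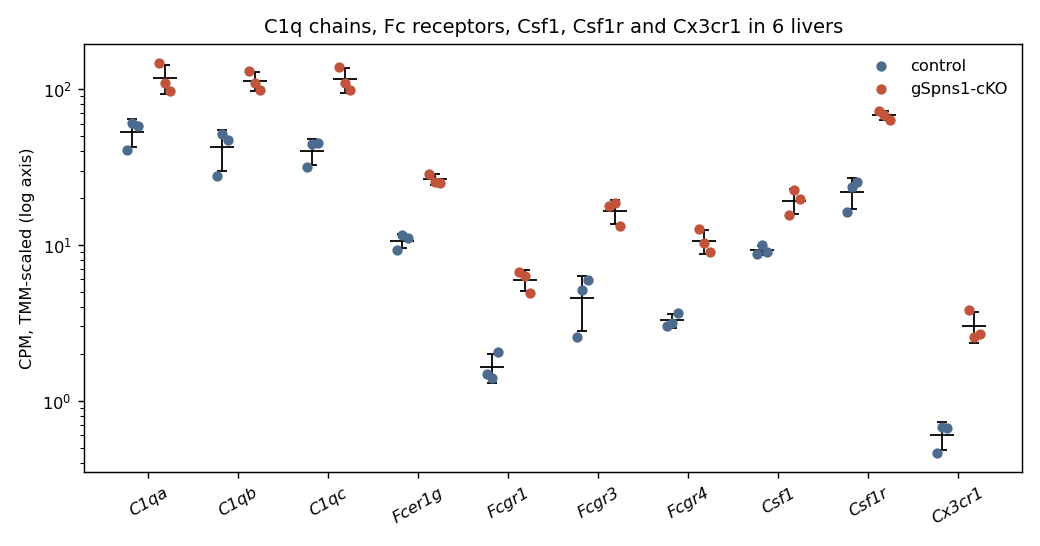
Level of each of the 10 genes in the 6 livers, as TMM-scaled CPM on a log axis; points are mice, and the horizontal and vertical lines are the mean and SD of each group of 3. Every g*Spns1*-cKO point lies above every control point of the same gene, from the C1q chains at 97.8 CPM or more to *Cx3cr1* at 2.58 to 3.81 CPM.

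The 3 C1q genes lie side by side on chromosome 4 (GRCm38, minus strand), *C1qb* at 136880129-136886187, *C1qc* at 136889804-136893065 and *C1qa* at 136895917-136898803, each with 3 exons and coding for protein. *C1qa*, the A chain, was at 40.7, 60.7 and 57.7 CPM in controls and at 145.8, 108.6 and 97.8 CPM in g*Spns1*-cKO livers. Its level rose from 53.0 ± 10.8 to 117 ± 25.2 CPM, a log2FC of 1.15 ± 0.19 (edgeR adjusted p = 0.00156). *C1qb*, the B chain, was at 27.8, 51.3 and 47.3 CPM in control and at 129.8, 109.5 and 98.9 CPM in g*Spns1*-cKO livers, with a log2FC of 1.42 ± 0.23 (edgeR adjusted p = 0.00182). In both genes control replicate 1 was lowest, and g*Spns1*-cKO replicate 1 was highest. *C1qc*, the C chain, was at 31.4, 44.1 and 45.0 CPM in control and at 138.0, 109.5 and 98.1 CPM in g*Spns1*-cKO livers. Its log2FC was 1.52 ± 0.17 (edgeR adjusted p = 0.000152), the highest of the 3 chains and with the lowest standard error.

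To see whether the chains kept their proportions, the level of each per kb of gene length was divided by the sum of the 3 in the same liver. *C1qa* made up 48.3%, 45.5% and 45.4% of that sum in controls and 42.4%, 39.9% and 39.9% in g*Spns1*-cKO livers. Its share was thus 5.68 percentage points below that of controls, without overlap. *C1qc* made up 20.1%, 17.8% and 19.1% in control and 21.6%, 21.7% and 21.5% in g*Spns1*-cKO livers, also without overlap, whereas the shares of *C1qb*, 31.6% to 36.7% and 36.0% to 38.6%, overlapped. Neither difference could pass the threshold in 3 mice against 3 (two-sided exact permutation p = 0.1 for *C1qa* and *C1qc*, 0.15 after Benjamini-Hochberg adjustment over the 3 chains, and p = 0.2 for *C1qb*). The shares rest on the deposited gene lengths, 1040, 1088 and 1931 bases for *C1qa*, *C1qb* and *C1qc*.

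**Figure D2:**
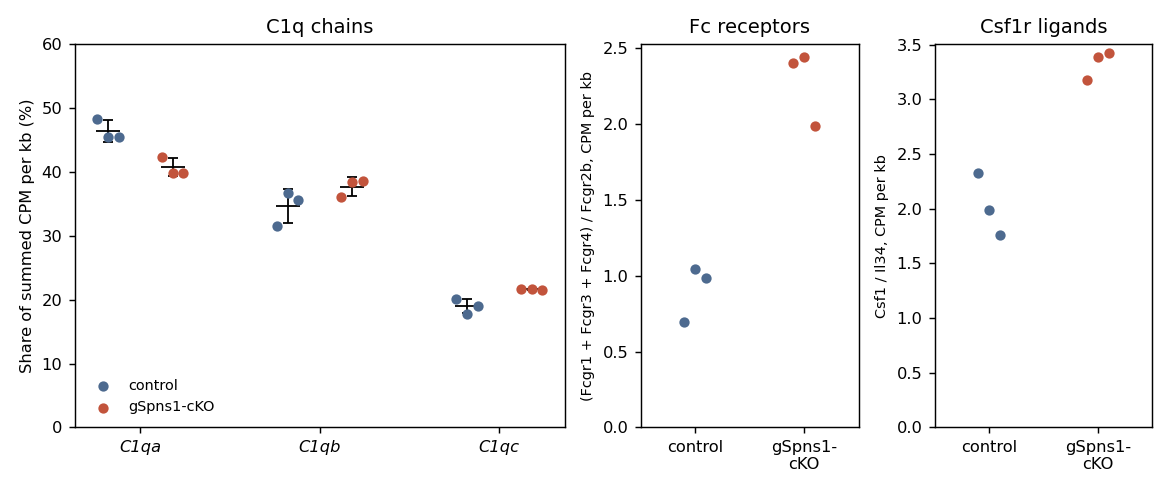
Left, share of each C1q chain in the sum of the 3 chains, in percent of CPM per kb; points are mice, and lines are the mean and SD of each group of 3. Middle and right, the ratio of summed *Fcgr1*, *Fcgr3* and *Fcgr4* to *Fcgr2b* and of *Csf1* to *Il34*, each in CPM per kb in each mouse; both ratios are higher in all g*Spns1*-cKO livers, at 1.99 to 2.44 and 3.18 to 3.42.

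Of 14 tested partners and regulators of C1q in the classical pathway, 1 was called higher and 4 lower. The shares over all genes tested were 21.3% higher and 20.5% lower. The median log2 fold change was -0.39 over the list and 0.014 over all genes tested. *C1ra*, the protease C1r, fell by 0.94 on the log2 scale (standard error 0.14, edgeR adjusted p = 0.000522), and *Serping1*, the inhibitor of C1r and C1s, fell by 1.52. *C4bp*, an inhibitor of the *C3* convertase, and *C4a*, a gene of the C4 locus close in sequence to *C4b*, had log2 fold changes of -1.26 and -2.84, both called lower. Reads of *C4a* and *C4b* could be split between them. *C1s1*, *C2*, *C3* and *C4b* had log2 fold changes of -0.31, -0.15, -0.51 and -0.46 and were not called (edgeR adjusted p = 0.152, 0.408, 0.130 and 0.0822). The gene called higher was *Cd55*, a membrane regulator of the convertase, with a log2 fold change of 0.82. Without control replicate 1, 7 genes of this list were lower. Summed over the list, levels were 9553 to 16140 CPM in control and 7969 to 9402 CPM in g*Spns1*-cKO livers.

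Receptors for complement fragments were mostly higher. Of 10 tested, 8 were called higher and 2 lower, with a median log2 fold change of 1.74. *Itgax*, a subunit of complement receptor 4, had 13, 28 and 17 counts in control and 245, 223 and 300 in g*Spns1*-cKO livers, which is a log2FC of 3.29 ± 0.27 (edgeR adjusted p = 2.1e-05). *C3ar1*, the C3a receptor, and *Vsig4*, the C3b receptor of Kupffer cells, had log2 fold changes of 2.84 and 2.04. The lower genes were *Calr* and *Lrp1*, which encode calreticulin and a scavenger receptor that together bind C1q on phagocytes and that many other cells also make, with log2 fold changes of -0.83 and -0.74. With libraries scaled by their totals only, neither was called lower.

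*Fcer1g*, the common gamma chain, lies on the minus strand of chromosome 1 at 171229572-171234365. It was at 9.32, 11.5 and 11.1 CPM in control and at 28.7, 25.2 and 24.9 CPM in g*Spns1*-cKO livers. Its log2FC was 1.30 ± 0.13 (edgeR adjusted p = 5.16e-05). The 3 g*Spns1*-cKO livers were close together, and the lowest of them was at 2.17 times the level of the highest control liver.

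Among the receptors that pair with *Fcer1g*, *Fcgr1*, the high-affinity IgG receptor on chromosome 3 (96282909-96293969, minus strand), had 42, 43 and 52 counts in control and 241, 241 and 193 in g*Spns1*-cKO livers. Its level rose from 1.65 ± 0.355 to 5.96 ± 0.936 CPM, a log2FC of 1.86 ± 0.24 (edgeR adjusted p = 0.000223). *Fcgr3*, a low-affinity receptor on chromosome 1 (171051174-171064935, minus strand), had 72, 159 and 150 counts in control and 639, 709 and 523 in g*Spns1*-cKO livers. Control replicate 1 was low for *Fcgr3*, at 2.56 CPM against 5.16 and 5.93 CPM in the others. Its log2FC was 1.86 ± 0.29 (edgeR adjusted p = 0.00140) and was 1.56 without that mouse. *Fcgr4*, also on chromosome 1 (171018920-171029761, plus strand), had 85, 97 and 93 counts in control and 455, 394 and 353 in g*Spns1*-cKO livers, which is a log2FC of 1.70 ± 0.18 (edgeR adjusted p = 9.03e-05). Its control livers were close together, at 3.02 to 3.67 CPM, and its g*Spns1*-cKO livers were at 8.98 to 12.6 CPM.

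*Fcgr2b*, the inhibitory receptor, which sinusoidal endothelial cells of the liver also express, had 1047, 1028 and 1064 counts in control and 1983, 1934 and 1916 in g*Spns1*-cKO livers. It rose from 37.6 ± 4.34 to 51.4 ± 3.31 CPM, a log2FC of 0.45 ± 0.11 (edgeR adjusted p = 0.00965). Per kb of gene length, the sum of *Fcgr1*, *Fcgr3* and *Fcgr4* was 0.693, 1.04 and 0.982 times *Fcgr2b* in controls and 2.40, 2.44 and 1.99 times *Fcgr2b* in g*Spns1*-cKO livers. The ratio of activating to inhibitory receptors was therefore 2.54-fold higher, a difference of 1.34 on the log2 scale without overlap (two-sided exact permutation p = 0.1, the smallest possible). This ratio does not depend on the scaling of libraries. *Fcgr3*, *Fcgr4* and *Fcgr2b* are neighbours and close in sequence, so reads could be split between them in counting. Endothelial markers, of which 5 of 8 were called higher, summed to 148 to 163 CPM in control and 218 to 264 CPM in g*Spns1*-cKO livers, and their part in the ratio was not tested. With libraries scaled by their totals only, 8 of the 8 were called higher.

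The other Fc receptors had 12 listed genes, of which 5 were tested, 2 called higher and 2 lower. Besides *Fcgr2b*, the higher gene was *Fcrl1*, a receptor of B cells, with 4 to 5 counts in control and 17 to 20 in g*Spns1*-cKO livers (log2 fold change 1.67, edgeR adjusted p = 0.0196). This call was lost without control replicate 1 or 2 and without g*Spns1*-cKO replicate 1 or 3 (edgeR adjusted p = 0.0574 to 0.0708). It was also lost with no filter on low counts (edgeR adjusted p = 0.0574), and *Fcrl1* was not tested where 10 counts were required in every library. *Fcgrt*, the neonatal Fc receptor that recycles IgG, fell by 1.07 on the log2 scale. *Pigr*, which carries IgA into bile, fell by 0.63, a call lost without control replicate 3 (edgeR adjusted p = 0.0593) and with libraries scaled by their totals only (log2FC -0.19, edgeR adjusted p = 0.341). *Fcer1a*, the IgE-binding chain that also pairs with *Fcer1g* in mast cells, had at most 1 count in any liver.

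Most genes that act below the activating receptors were called higher. Of 22 adaptors and signalling genes of ITAM receptors, 19 were called higher and 0 lower, with a median log2 fold change of 1.57. *Tyrobp*, the sister adaptor of *Fcer1g*, and *Syk*, the kinase that docks on phosphorylated ITAMs, had log2 fold changes of 1.96 and 1.74. *Cybb* and *Ncf4*, subunits of the phagocyte NADPH oxidase, had 2.32 and 2.05, and *Plcg2*, the phospholipase downstream of *Syk*, had 1.99. The opposing list of ITIM receptors and phosphatases, which dampen these signals, had 9 of 11 called higher, 0 lower and a median of 1.46. Of all genes tested, 21.3% were called higher. The phosphatase gene *Inpp5d* had a log2 fold change of 1.46. *Ptpn6*, another phosphatase gene, and *Dok3* had 0.05 and 0.08 and were not called (edgeR adjusted p = 0.805 and 0.817). *Lilrb4a*, *Sirpa* and *Clec12a*, inhibitory receptors of myeloid cells, had log2 fold changes of 2.52, 1.98 and 1.77.

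*Csf1r* lies on chromosome 18 (61105572-61132149, plus strand) and was at 16.3, 23.7 and 25.4 CPM in control and at 71.8, 67.6 and 63.5 CPM in g*Spns1*-cKO livers. Its log2FC was 1.63 ± 0.16 (edgeR adjusted p = 5.41e-05), and the g*Spns1*-cKO livers lay within a narrow range, the lowest at 2.50 times the level of the highest control liver. In GENCODE M21 it shares 873 exon bases with *Hmgxb3* on the opposite strand, which had 277 to 465 counts. *Hmgxb3* had a log2 fold change of -0.07 that was not called. The coordinates of *Csf1r* given here differ from those of M21, with a deposited length of 4885 bases against 5774 exon bases in M21. How many shared bases were in the exons counted is thus not known. *Csf1*, its ligand, lies on chromosome 3 (107741048-107760469, minus strand) and had 245, 306 and 228 counts in control and 557, 859 and 775 in g*Spns1*-cKO livers. Its level rose from 9.22 ± 0.638 to 19.2 ± 3.48 CPM, a log2FC of 1.06 ± 0.15 (edgeR adjusted p = 0.000486), the lowest of the 10 genes. *Il34*, the other ligand of *Csf1r*, had 39, 57 and 48 counts in control and 65, 94 and 84 in g*Spns1*-cKO livers, which is a log2FC of 0.32 that was not called (standard error 0.26 and edgeR adjusted p = 0.360). Per kb, *Csf1* was 2.33, 1.99 and 1.76 times *Il34* in control and 3.18, 3.39 and 3.42 times *Il34* in g*Spns1*-cKO livers, a 1.65-fold higher ratio without overlap (two-sided exact permutation p = 0.1). Of 11 tested ligands and receptors of the other colony-stimulating factors and their kin, 5 were called higher, all of them receptors, and 0 lower (1 without control replicate 1). They were led by *Csf2rb2*, *Csf3r* and *Flt3* with log2 fold changes of 2.31, 1.97 and 1.96. *Flt3* had only 6, 5 and 2 counts in control and 19, 28 and 22 in g*Spns1*-cKO livers (edgeR adjusted p = 0.0114). It was not tested where 10 counts were required in every library. With libraries scaled by their totals only, 8 of the 11 were called higher.

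*Cx3cr1*, on chromosome 9 (119901616-120069879, minus strand), had the fewest reads and the largest fold change of the 10 genes. It had 13, 21 and 17 counts in control and 137, 99 and 105 in g*Spns1*-cKO livers, or 0.605 ± 0.124 and 3.02 ± 0.684 CPM. The log2FC was 2.31 ± 0.31 (edgeR adjusted p = 0.000292). The annotated gene spans several others, among them *Gorasp1*, *Csrnp1* and *Xirp1* on the same strand, all called lower, and shares 78 exon bases only with *Gm33858*, which had at most 2 counts. *Cx3cl1*, its ligand, had 24, 20 and 16 counts in control and 85, 128 and 85 in g*Spns1*-cKO livers, which is a log2FC of 1.87 ± 0.31 (edgeR adjusted p = 0.000943), so that receptor and ligand both rose. *Adam10*, a protease that releases CX3CL1 from the membrane, rose by a log2 fold change of 0.49, and *Adam17*, another such protease, had 0.31 and was not called (edgeR adjusted p = 0.0926). *Ctss*, a protease of phagocytes that also releases CX3CL1 and is itself in the list of macrophage markers, had 2.15.

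**Figure D3:**
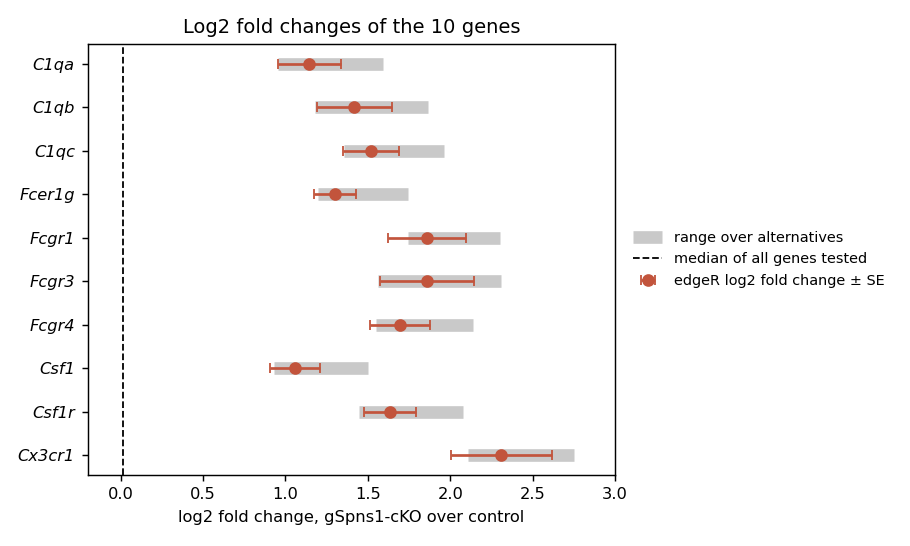
Log2 fold change of each of the 10 genes, g*Spns1*-cKO over control; points and error bars are the edgeR estimate and its standard error, grey bars span the 15 alternative settings, and the dashed line is the median of all genes tested. Each grey bar lies at 0.93 or above, and *Cx3cr1* has the highest estimate at 2.31.

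Per kb of gene length, the order of levels was the same in both groups, *C1qa*, *C1qb*, *C1qc*, *Fcer1g*, *Csf1r*, *Fcgr3*, *Fcgr4*, *Csf1*, *Fcgr1* and *Cx3cr1*. In control livers *C1qa* and *C1qb*, at 39.1 to 58.4 and 25.6 to 47.2 CPM per kb, were not separated, nor were *Csf1r* from *Fcgr3* or *Fcgr3* from *Fcgr4*. In g*Spns1*-cKO livers *C1qa* and *C1qb*, at 94.0 to 140 and 90.9 to 119 CPM per kb, and again *Fcgr3* and *Fcgr4* were not separated. *Cx3cr1* was lowest, at 0.103 to 0.151 CPM per kb in control and 0.573 to 0.845 CPM per kb in g*Spns1*-cKO livers. The livers of a group also differed among themselves in a shared way. Control replicate 1 had the lowest CPM of its group in 9 of the 10 genes, g*Spns1*-cKO replicate 3 in 8, and g*Spns1*-cKO replicate 1 had the highest of its group in 8.

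Markers of macrophages rose along with the 10 genes. Of 12 general macrophage markers 11 were called higher and 0 lower, with a median log2 fold change of 2.14, and they summed to 145 to 250 CPM in control and 628 to 825 CPM in g*Spns1*-cKO livers. Of 7 Kupffer cell markers 6 were called higher, summing to 249 to 367 CPM and 592 to 842 CPM, and of 8 monocyte markers 6 were called higher, summing to 15.3 to 16.5 CPM and 37.9 to 44.0 CPM. *Adgre1*, the macrophage antigen F4/80, *Cd68*, a lysosomal protein of macrophages, and *Ptprc*, the leukocyte antigen CD45, had log2 fold changes of 2.14, 2.14 and 1.79. *Clec4f*, a Kupffer cell receptor, had 1.14. *Spi1*, which encodes PU.1, had 86, 167 and 107 counts in control and 538, 519 and 512 in g*Spns1*-cKO livers, which is a log2FC of 1.70 ± 0.20 (edgeR adjusted p = 0.000139). Of the 15 macrophage transcription factors tested, 9 were called higher, led by *Ikzf1*, *Batf3* and *Tfec* with 2.13, 1.91 and 1.74, and 4 were called lower, among them *Cebpa* and *Nr1h3*, which are also abundant in hepatocytes.

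To compare the 10 genes with the rise of macrophage RNA, each was divided by the geometric mean of *Adgre1*, *Cd68* and *Ptprc* in the same liver, a ratio that is free of library scaling. Against this reference, 6 genes were lower in every g*Spns1*-cKO liver than in every control liver, 4 overlapped and 0 were higher without overlap. The reference genes rose by log2 fold changes of 2.14, 2.14 and 1.79, and the median over all genes tested was 0.014. A gene at that median would thus also be lower against this reference, so being lower is not particular to the 6 genes. The share of all genes lower without overlap was not computed. *C1qa* was at 8.66, 12.4 and 8.79 times the reference in control and at 5.66, 5.78 and 4.69 times in g*Spns1*-cKO mice, a difference of -0.87 on the log2 scale. *C1qb* and *C1qc* differed by -0.56 and -0.49. *Fcer1g* was at 1.98, 2.34 and 1.70 times the reference in control and at 1.11, 1.34 and 1.20 times in g*Spns1*-cKO mice, a difference of -0.71. *Fcgr4* and *Csf1* differed by -0.33 and -0.98. *Fcgr1*, *Fcgr3*, *Csf1r* and *Cx3cr1* differed by -0.16, -0.09, -0.36 and 0.30 and their groups overlapped. For the 6 genes without overlap the two-sided exact permutation p = 0.1, and 0.167 after Benjamini-Hochberg adjustment over the 10 genes, so no difference could pass the threshold in 3 mice against 3. The reference genes were themselves called higher, and their use as a measure of cell number was not tested. The 12 general macrophage markers had log2 fold changes from 0.96 for *Aif1* to 3.25 for *Trem2*. The size and sign of these differences therefore depend on which markers serve as reference.

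**Figure D4:**
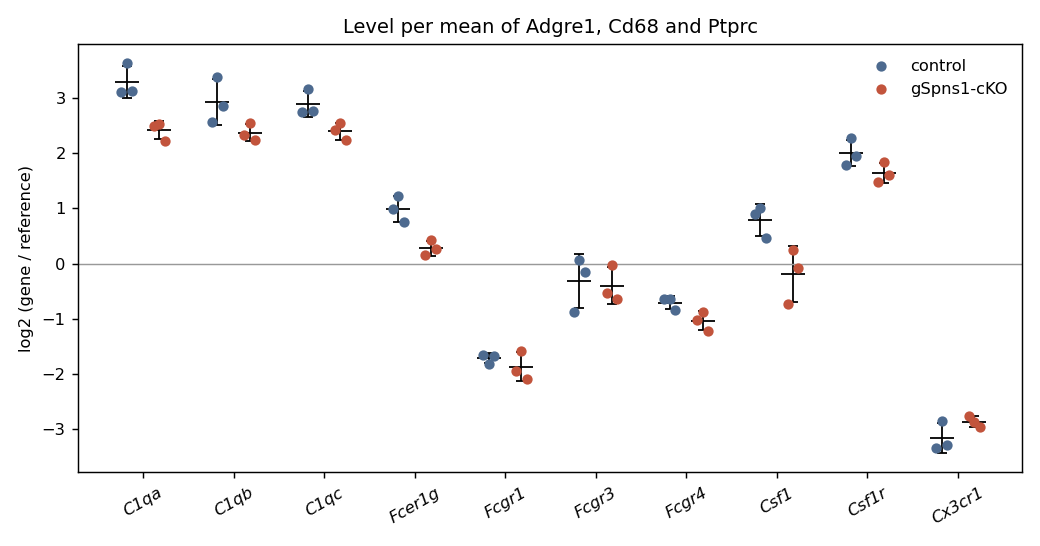
Log2 ratio of each of the 10 genes to the geometric mean of *Adgre1*, *Cd68* and *Ptprc* in the same liver; points are mice, and lines are the mean and SD of each group of 3. The C1q chains, *Fcer1g*, *Fcgr4* and *Csf1* lie lower in all g*Spns1*-cKO livers, and the groups overlap for *Fcgr1*, *Fcgr3*, *Csf1r* and *Cx3cr1*.

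Other cell types that can express Fc receptors or *Csf1* were checked by their markers, and their part in the 10 changes was not tested. Of 9 tested NK and T cell markers 4 were called higher, *Ncr1*, *Klrb1c*, *Klrk1* and *Gzma*, and 1 lower, *Cd4*. The *Cd4* call was lost without control replicate 2 or g*Spns1*-cKO replicate 2. *Ncr1* had 1, 0 and 0 counts in control and 16, 18 and 22 in g*Spns1*-cKO livers. *Cd3d*, *Cd3e*, *Cd3g* and *Cd8a* had log2 fold changes of -0.23, -0.001, 0.23 and 1.95 and were not called. Summed levels of this list were 5.01 to 5.41 CPM in control and 8.37 to 9.38 CPM in g*Spns1*-cKO livers. Of 4 tested neutrophil markers 3 were called higher, summing to 2.49 to 5.10 CPM and 6.09 to 11.2 CPM, while *Ly6g* had at most 2 counts in any liver. Mast cell and basophil markers were near 0, with 0 of 7 tested, and summed levels of 0 to 0.0395 CPM in control and 0.104 to 0.278 CPM in g*Spns1*-cKO livers, which did not overlap. *Cpa3*, a mast cell protease, had 0 counts in each control liver and 2, 2 and 7 counts in g*Spns1*-cKO livers, whereas *Fcer1a* and *Mcpt4* had at most 1 count in any liver. Of 6 B cell markers 1 was called higher, *Igkc*, summing to 72.3 to 90.5 CPM and 97.2 to 160 CPM, of 6 tested dendritic cell markers 2, summing to 7.86 to 10.1 CPM and 12.0 to 13.1 CPM, and of 3 tested platelet markers 1, *Pf4*, summing to 4.90 to 7.11 CPM and 5.42 to 6.46 CPM, with *Gp6* at no more than 2 counts. Outside the blood lineages, 6 of 8 stellate cell and fibroblast markers and 6 of 6 cholangiocyte markers were called higher, summing to 201 to 230 CPM and 508 to 584 CPM, and to 44.3 to 63.0 CPM and 171 to 280 CPM. Single genes made most of some sums. *Spp1* alone was at 37.6 to 56.2 CPM in control and 147 to 248 CPM in g*Spns1*-cKO livers in the cholangiocyte list. *Igkc* was at 49.7 to 65.1 CPM and 90.4 to 152 CPM in the B cell list. Of 8 hepatocyte markers 0 were called higher and 5 lower, with summed levels of 112700 to 125000 CPM in control and 60600 to 72440 CPM in g*Spns1*-cKO livers. With libraries scaled by their totals only, 1 hepatocyte marker was lower and 1 higher, and leaving out control replicate 1, control replicate 3 or g*Spns1*-cKO replicate 3 gave 3, 2 and 2 lower.

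**Figure D5:**
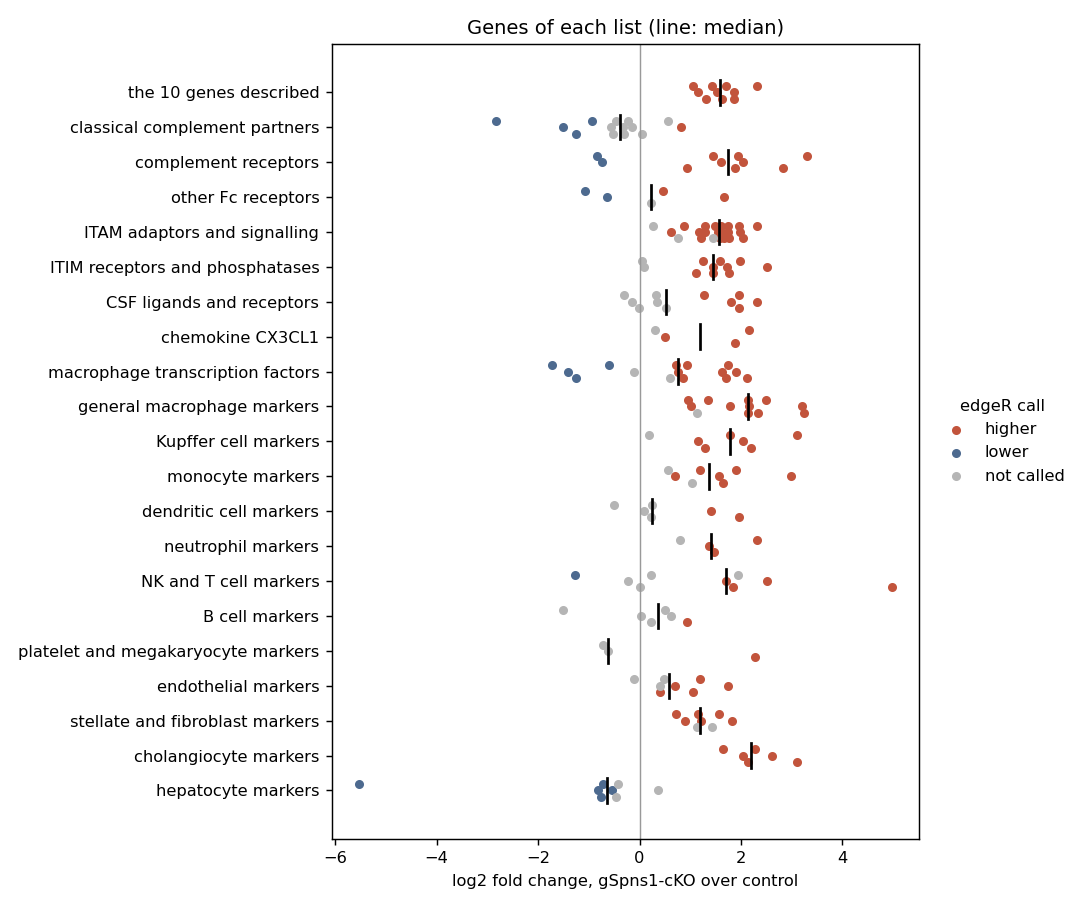
Log2 fold change, g*Spns1*-cKO over control, of every tested gene in each list, coloured by the edgeR call at an adjusted p under 0.05; black lines are list medians. The 10 genes described have a median of 1.58, general macrophage markers 2.14, classical complement partners -0.39 and hepatocyte markers -0.64.

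Genes next to the 10 on the chromosome did not move as a group. Of 91 other genes within 100 kb, 34 were tested, of which 6 were called higher, 7 lower and 21 neither, with a median log2 fold change of -0.18. Over all genes tested, 21.3% were called higher and 20.5% lower. Around *Fcer1g*, 0 of 13 were higher and 4 were lower, among them *Apoa2*, an apolipoprotein gene 3193 bases away. Around *Fcgr1*, 5 were tested and 0 called. The C1q cluster had 2 tested neighbours, *Ephb2* and *Zbtb40*, both higher, with log2 fold changes of 4.16 and 0.72. Near *Csf1r*, 3 of 4 were higher, including *Pdgfrb*, the receptor of stellate cells and pericytes, with 1.82.

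Genes whose pattern over the 6 livers was most like that of *C1qa*, *Fcer1g* and *Csf1r* were found among 12917 genes by the root-mean-square difference of centred log2(CPM + 0.5) values. With 6 livers in 2 groups the difference between groups enters this measure, and the pseudocount lowers the change of rare genes. The 5 nearest to *C1qa* were *Gpr35*, *C7*, *Sdc3*, *Clip2* and *Rac2*, at 0.094 to 0.110. Those nearest to *Fcer1g* were *Cttnbp2nl*, *Clec1b*, *Csf2rb*, *Lgmn* and *Rab8b*, at 0.046 to 0.078, and those nearest to *Csf1r* were *Apbb1ip*, *Fam129a*, *Plekhm3*, *Lrrc25* and *Sla*, at 0.044 to 0.0997. Among the 10 genes, *Fcgr1* and *Fcgr4* were most alike, at 0.093, and *Fcgr3* and *Csf1* least, at 0.548. *C1qb* and *C1qc* were at 0.122, nearer to each other than either was to *C1qa*, at 0.190 and 0.191.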

How the data were processed

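RNA-Seq of liver was analysed for 3 control and 3 g*Spns1*-cKO mice, grouped from the sample titles. The authors deposited whole-number counts per gene, not normalized, with FPKM values, a signal per group (the mean of scaled counts), gene lengths, and the log2 fold changes and p-values of the authors' own comparison. Only the counts and gene lengths were used. The submitters' processing notes name fastp, HISAT2 2.0.5, featureCounts 1.5.0-p3 and mm10. The strand setting of the counting is not given in the sources used here. In GENCODE M21, 98.3% of the genes found had the same coordinates.

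Counts were tested in R 4.3.3 with edgeR 4.0.16 (TMM scaling, filterByExpr, robust quasi-likelihood test, Benjamini-Hochberg adjustment over all 15449 genes tested, threshold 0.05), after the scripts were checked on simulated data. No 2 libraries agreed within sampling noise. Labels do not tie libraries to litters, and p-values measure the spread between these mice. The 10 genes and the 21 gene lists beside them were chosen with earlier results of these data known. Named genes were the 10 genes, *Spns1*, a fixed set of partners and markers, the 3 largest called changes without overlap in each of 8 pathway lists, the nearest genes in position and in pattern, and markers near 0 counts. *Calr*, *Lrp1*, *Cd55*, *Adam17*, *Cebpa*, *Nr1h3*, *Aif1*, *Trem2*, *Ncr1*, *Klrb1c*, *Klrk1*, *Gzma*, *Cd3d*, *Cd3e*, *Cd3g*, *Cd8a*, *Cd4*, *Igkc*, *Pf4*, *Spp1*, *Inpp5d*, *Ptpn6*, *Dok3* and called neighbours were named after their values were seen. A few genes are not reported here. Level ratios used exact permutation tests. Alternatives were DESeq2 1.42.0, limma-voom (limma 3.58.1), other scalings and filters, a replicate block, a threshold of 0.01 and leaving out each mouse. The level given for 3 counts covers counting error only.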

Additional observations from a re-analysis of the deposited data

How the results depend on the processing

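All 10 genes were called higher under each of the 15 alternatives, with the highest adjusted p at 0.00988. Scaling by library totals only moved the median over all genes tested to 0.46 on the log2 scale, and gave each of the 10 its highest value, such as 1.59 for *C1qa* and 2.75 for *Cx3cr1*. With each mouse left out in turn, values ranged from 0.96 to 1.26 for *C1qa* and from 0.93 to 1.19 for *Csf1*. Same-numbered mice did not deviate together (correlations 0.042, 0.032 and -0.027). Whether they shared a litter or a processing day cannot be told from these values. A fit with the replicate block called 10 of the 10 genes, with a median log2 fold change of 1.59. *Spns1* no longer passed the threshold under library totals only (-0.43, adjusted p = 0.213), upper-quartile scaling (-0.74, adjusted p = 0.0635) and a threshold of 0.01 (-0.87), and was -0.68 to -1.18 with each mouse left out. Marker genes called lower numbered 6, and 1 under library totals only, 1 at a threshold of 0.01, and 3 to 7 with each mouse left out. Neighbouring genes called lower numbered 4 under library totals only, against 7. Against *Ptprc* alone, the differences of *Fcgr1* and *Fcgr3* became 0.0545 and 0.12, and that of *Fcgr3* against the 3 reference genes ranged from -0.36 to 0.11 with each mouse left out, above 0 without control replicate 2 or g*Spns1*-cKO replicate 3. The cause was not tested. Of the 15 pattern neighbours, 12 stayed under library totals only, an alternative chosen after seeing the data. Where 10 counts were required in every library, 1 NK and T cell marker, 1 dendritic cell marker and 0 platelet markers were called higher. With library totals only, 2 B cell markers were called higher. At a threshold of 0.01, 3 endothelial markers were called higher and 1 hepatocyte marker lower, and upper-quartile scaling gave 3 hepatocyte markers lower and 1 higher.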
